A study of Mus musculus with 6 samples.

Results

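Transcripts that mark cells outside the kidney tubule were measured in RNA of isolated mouse collecting duct cells, as a reading of how much blood vessel, immune, stromal, podocyte and red cell RNA the preparation carried. The 42 genes comprised 12 vascular, 14 immune, 7 stromal, 4 podocyte and 5 blood markers. They were taken by symbol from the 24928 genes to which the deposited transcript identifiers could be matched, an identifier being assigned to a member where at least 50% of its exonic bases lay in that gene on the same strand. Male mice of the inbred strain C57BL/6J had been fed for 5 days a diet either low in NaCl (0.01 to 0.02% sodium) or high in NaCl (2.4% sodium), and 3 libraries were made for each. Whether each library came from its own animals is not given in the sources used here, so the p-values speak of the scatter among libraries, part of which may be technical. The labels also give no genotype, age or way of isolating the cells.

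The collecting duct ends the renal tubule and is built from principal cells, which take up sodium and water, and intercalated cells, which handle acid and base. It lies among capillaries, resident macrophages and fibroblasts, and the glomeruli, with their podocytes and specialised capillaries, sit upstream in the cortex. A fraction enriched for collecting duct cells can carry RNA of any of these neighbours, and of red cells left in the vessels. In RNA pooled from many cells, fewer cells of a type and less RNA per cell cannot be told apart.

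Depth was 40101899 to 46861531 counted reads per library. The authors counted reads per transcript and not per gene, and by the counting program's defaults reads in exons shared by several transcripts are left out. Only the bases of a gene that belong to a single identifier were countable, and this limits what a low count says of a marker. Of the 42 members, 17 were fully countable, 28 had at least 500 countable bases, 11 had fewer, and 3 had none. Library 1 of either diet was sequenced in lane 1, lane 2 held low-NaCl libraries 2 and 3, and lane 3 held high-NaCl libraries 2 and 3, so only lane 1 allows a comparison of the diets within a lane. Levels are given in CPM, counts scaled to a common library size after TMM normalization, and as means ± SD over 3 libraries per diet.

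The defining markers of collecting duct cells were present. Aqp2, the water channel of principal cells, stood at 3472 ± 1702 CPM per kb of countable exon over the 6 libraries, and Foxi1, the transcription factor of intercalated cells, at 114 ± 65.2 CPM per kb. Aqp2 was 2.43-fold lower and Foxi1 2.64-fold higher on the low-NaCl diet (edgeR adjusted p = 0.0222 and 0.0127). Mitochondrial genes took 20.5% to 21.8% of counts at low NaCl and 21.9% to 29.9% at high NaCl, and their part in the results below was not tested. Among markers of other tubule segments, Aqp1, a water channel of the proximal tubule and thin descending limb that some capillaries also make, stood at 751 ± 321 CPM per kb, above Foxi1. Lower values were found for Slc12a1 of the thick ascending limb (30.6 ± 10.7 CPM per kb), Slc12a3 of the distal convoluted tubule (1.26 ± 0.349) and Slc34a1 of the proximal tubule (0.768 ± 0.567). Kap, a further proximal marker, stood at 22.7 ± 11.3 CPM per kb.

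Against that scale the markers of cells outside the tubule were scarce. The 42 members summed to 0.00564% to 0.0102% of the counted reads of a library (2352 to 4102 reads), with 95% Wilson intervals of 0.00542% to 0.00587% for the lowest and 0.00986% to 0.0105% for the highest. The share was 0.00799 ± 0.00228% at low NaCl and 0.00702 ± 0.000787% at high NaCl, while Aqp2 alone took 0.233% to 0.719%. These intervals cover counting error only, since reads without molecular identifiers are not independent molecules. The share leaves out reads in bases that were not countable, and 14 of the 42 members had fewer than 500 countable bases. Aqp2 was fully countable. Only 6 members averaged at least 1 CPM, namely Ehd3, Plvap, Acta2, Tagln, Podxl and Hbb-bs. For Kdr, Flt1, Tie1 and H2-Aa, identifiers without any read add to the countable length, so levels per kb understate that of the transcript present. Over the 28 members with at least 500 countable bases the median level was 0.157 CPM per kb and the highest, that of Tagln, 15.1 CPM per kb.

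**Figure D1:**
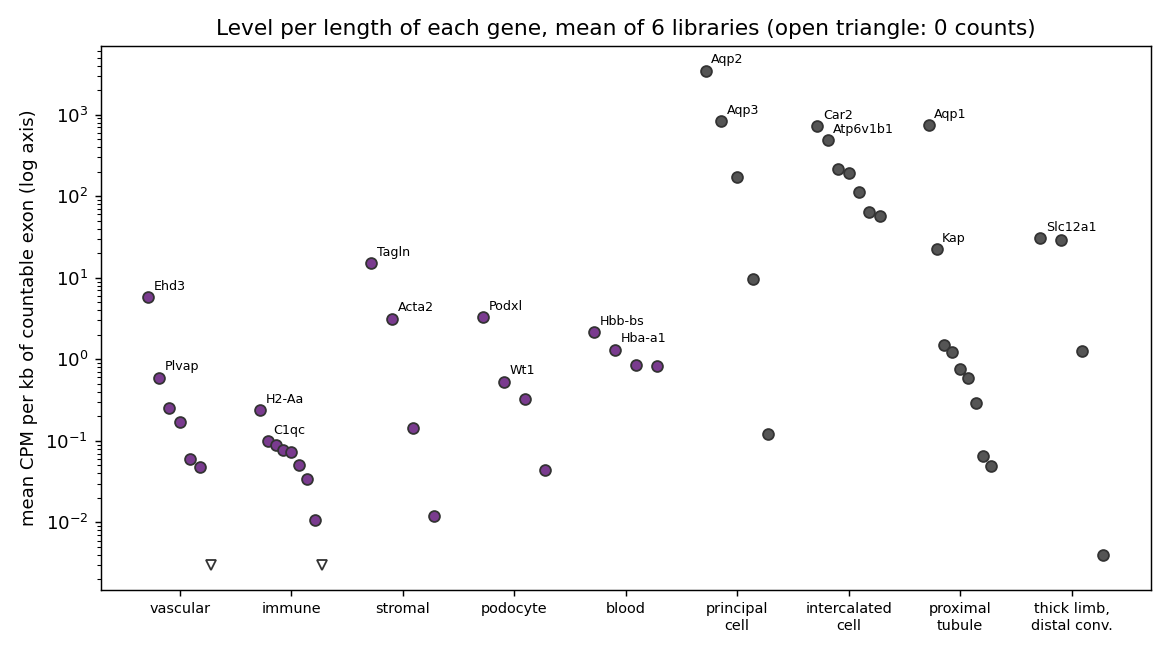
Mean level of each gene over the 6 libraries in CPM per kb of countable exon, on a log axis, for members with at least 500 countable bases (purple) and for tubule markers (grey); open triangles stand for genes with no counted read and are placed at the bottom of the plot. Aqp2 lies at 3472 CPM per kb, and the highest member, Tagln, at 15.1.

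A count of 0 had different weight for different members. No read was counted in any library for 9 members. Pecam1 and Tek, an adhesion molecule and a receptor of endothelium, and the macrophage receptor Adgre1 had no countable base and so could give no count. Cd68, S100a9, Pdgfrb and Alas2 had 27, 3, 19 and 45 countable bases, too few to read a level from. Emcn, an endothelial sialomucin, and Ptprc, the pan-leukocyte phosphatase CD45, were at 0 with 2821 and 1346 countable bases. For Emcn all of these bases belonged to 1 of its 3 identifiers, so the 0 bears on that transcript only, and for Ptprc they belonged to 2 of 6. A count of 0 allows up to 3 counts per library, or 0.0574 to 0.0825 CPM.

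Endothelial members with readable levels were low, apart from Ehd3. Cdh5, which encodes the endothelial junction protein VE-cadherin and was fully countable (chromosome 8), had 25, 17 and 0 counts in low-NaCl libraries 1 to 3 and 38, 39 and 47 in high-NaCl libraries 1 to 3. Plvap, the protein of the diaphragms of fenestrated capillaries (chromosome 8), had 45, 24 and 16 against 60, 91 and 68 counts. In both genes every low-NaCl library lay below every high-NaCl library, and the diets did not overlap in 23.9% of all tested genes. Per kb of countable exon Aqp2 exceeded Cdh5 20508-fold, a ratio of RNA levels that cannot be turned into a share of cells.

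Plvap measured 0.681 ± 0.388 CPM at low NaCl and 1.73 ± 0.0796 CPM at high NaCl, a log2 fold change (low-NaCl minus high-NaCl, ± SE) of -1.35 ± 0.39 with an unadjusted p of 0.00617 that did not pass adjustment over all genes (edgeR adjusted p = 0.0954, 0.0185 to 0.675 over the alternatives). It passed with DESeq2 (adjusted p = 0.0224), with no filter on low counts (0.048) and without low-NaCl library 1 (0.0185), and it was -1.06 without library 3 of the low-NaCl diet (0.263) and -0.56 within lane 1. Cdh5 measured 0.336 ± 0.314 against 1.01 ± 0.254 CPM (log2 fold change -1.58 ± 0.77, edgeR adjusted p = 0.318, or 0.384 without that library) and differed by -0.75 on the log2 scale within lane 1.

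Receptors of the angiogenic ligands were scattered and did not separate the diets. Kdr, a receptor of vascular endothelial growth factor, had 2, 33 and 1 counts at low NaCl and 25, 35 and 4 at high NaCl. Flt1, a second receptor of that family, had 23, 7 and 4 against 3, 15 and 11 counts, and Tie1, an orphan receptor of endothelium, 47, 7 and 1 against 18, 7 and 23. The counts of Kdr, Flt1 and Tie1 each came from 1 identifier, although others of the same gene had countable bases. Egfl7, Eng and Esam had 5, 1 and 2 counts in all, over 311, 139 and 11 countable bases.

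Ehd3, an endocytic recycling protein used as a marker of glomerular endothelium, did not follow the other vascular members. It held 881, 956 and 779 counts at low NaCl and 597, 1361 and 811 at high NaCl, which is 20.7 ± 2.0 against 21.3 ± 4.8 CPM. Its highest library exceeded its lowest by 1.58-fold, where Plvap spanned 4.8-fold and Tie1 49.5-fold. Per kb it stood at 5.74 ± 0.905 CPM, against 0.599 ± 0.312 for Plvap. Ehd3 thus made up most of the summed vascular level, which was 22.7 ± 3.39 CPM at low NaCl and 25.3 ± 4.61 CPM at high NaCl. Without Ehd3, a choice made after its values were seen, the sum was 3.53, 2.05 and 0.542 CPM in low-NaCl libraries 1 to 3 and 4.02, 3.59 and 4.12 CPM in high-NaCl libraries 1 to 3.

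**Figure D2:**
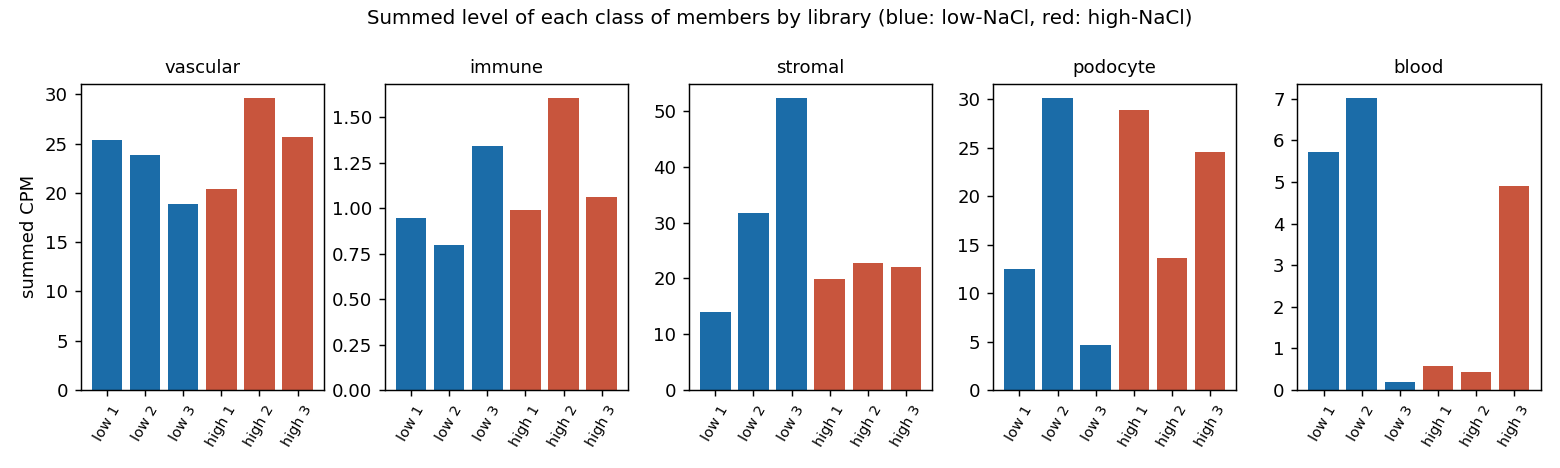
Summed CPM of all members of each class in each library, low-NaCl in blue and high-NaCl in red, each panel with its own linear axis from 0. The blood panel is high in low-NaCl libraries 1 and 2 and high-NaCl library 3 and under 0.6 CPM in the other 3, and the podocyte panel is lowest in low-NaCl library 3, at 4.67 CPM.

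Immune members had the lowest mean summed level of the 5 classes. The sums are not scaled by countable length, and 9 of the 14 immune members had at least 500 countable bases. In low-NaCl library 3 and high-NaCl libraries 1 and 2 the blood sum was lower (0.189, 0.578 and 0.421 CPM) than the immune sum (1.34, 0.990 and 1.61 CPM). The summed immune level was 1.03 ± 0.283 CPM at low NaCl and 1.22 ± 0.336 CPM at high NaCl, over 35 to 84 counts per library, and the diets overlapped. Among the 9 immune members with at least 500 countable bases, H2-Aa was the highest per kb (0.24 ± 0.108 CPM per kb). This chain of the class II molecule, by which antigen-presenting cells display peptides, had 7, 19 and 18 counts at low NaCl and 14, 27 and 5 at high NaCl. All 90 of these reads came from 1 of its 3 identifiers. It was the only immune member with enough reads to be tested (log2 fold change -0.02 ± 0.57, edgeR adjusted p = 0.988), and its sign turned with total-count scaling. Cd74, the chain that escorts class II molecules, had 9, 2 and 16 against 8, 14 and 9 counts over 192 countable bases.

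The complement genes of resident macrophages were fully countable and had few reads. C1qa, C1qb and C1qc, which encode the 3 chains of C1q, had 25, 10 and 26 counts over all 6 libraries. C1qc had 0, 1 and 8 counts at low NaCl and 0, 5 and 12 at high NaCl. Among immune members with at least 500 countable bases it was the second highest per kb. Lyz2, the lysozyme of myeloid cells, had 8, 0 and 2 against 0, 7 and 3 counts. The fully countable lymphocyte genes Cd3e of the T cell receptor complex and Cd79a of the B cell receptor complex had 19 and 26 counts in all. Csf1r, the receptor for the macrophage growth factor, had 5 counts over 1748 countable bases, all on the high-NaCl diet, and the neutrophil gene S100a8 had 11, of which 9 were in low-NaCl library 1.

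Among stromal members, the contractile genes Tagln and Acta2 held most of the reads. Tagln, an actin-binding protein of smooth muscle, had 361, 1244 and 1979 counts at low NaCl and 548, 1049 and 579 at high NaCl, or 28.0 ± 18.8 against 16.8 ± 2.79 CPM. The low-NaCl libraries included both its lowest and its highest value, a 5.2-fold span. Its log2 fold change of 0.73 ± 0.45 did not pass (edgeR adjusted p = 0.433). It was 1.14 and passed without library 1 of the low-NaCl diet (0.0245), 0.15 without its library 3 (0.932), and -0.75 within lane 1. Acta2, smooth muscle actin, had 176, 120 and 223 against 161, 126 and 223 counts (4.12 ± 1.28 against 4.26 ± 1.77 CPM, edgeR adjusted p = 0.962).

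Pericyte and fibroblast genes had few reads. Rgs5, a pericyte regulator of G protein signalling, had 16, 7 and 1 against 9, 8 and 22 counts although fully countable, and Lum, a matrix proteoglycan of fibroblasts, had 6 counts in all. Dcn, the proteoglycan decorin, had 4, 18 and 11 counts on the low-NaCl and 3 in each high-NaCl library, and was too low to be tested. Postn, a matrix protein of activated fibroblasts, had 4 counts over 165 countable bases. The summed stromal level of 32.6 ± 19.2 against 21.5 ± 1.51 CPM therefore followed Tagln, and without it the sums were 4.63 ± 1.18 and 4.68 ± 1.98 CPM.

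Podocyte members had reads in every library except for Synpo, which had 6, 1 and 1 counts at low NaCl and none at high NaCl. Podxl, the sialomucin podocalyxin of podocyte foot processes, which is also made by endothelium (chromosome 6), was fully countable and had 483, 1244 and 122 counts at low NaCl and 1001, 648 and 878 at high NaCl. The low-NaCl libraries held both ends of this 9.85-fold range. Its log2 fold change was -0.55 ± 0.61 (14.4 ± 12.9 against 21.1 ± 7.82 CPM, edgeR adjusted p = 0.691), -1.50 when library 2 of the low-NaCl diet was left out and -0.06 when its library 3 was.

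Nphs1, the nephrin of the slit diaphragm, had 10, 33 and 20 against 37, 30 and 32 counts (log2 fold change -0.71 ± 0.45, edgeR adjusted p = 0.451). Wt1, a transcription factor kept on in adult podocytes, was ordered differently, with 2, 45 and 55 against 11, 34 and 15 counts and its highest value in low-NaCl library 3, where Podxl was lowest. For Wt1 only 34.8% of exonic bases were countable, and without strand information its reads cannot be told from those of an antisense transcript.

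**Figure D3:**
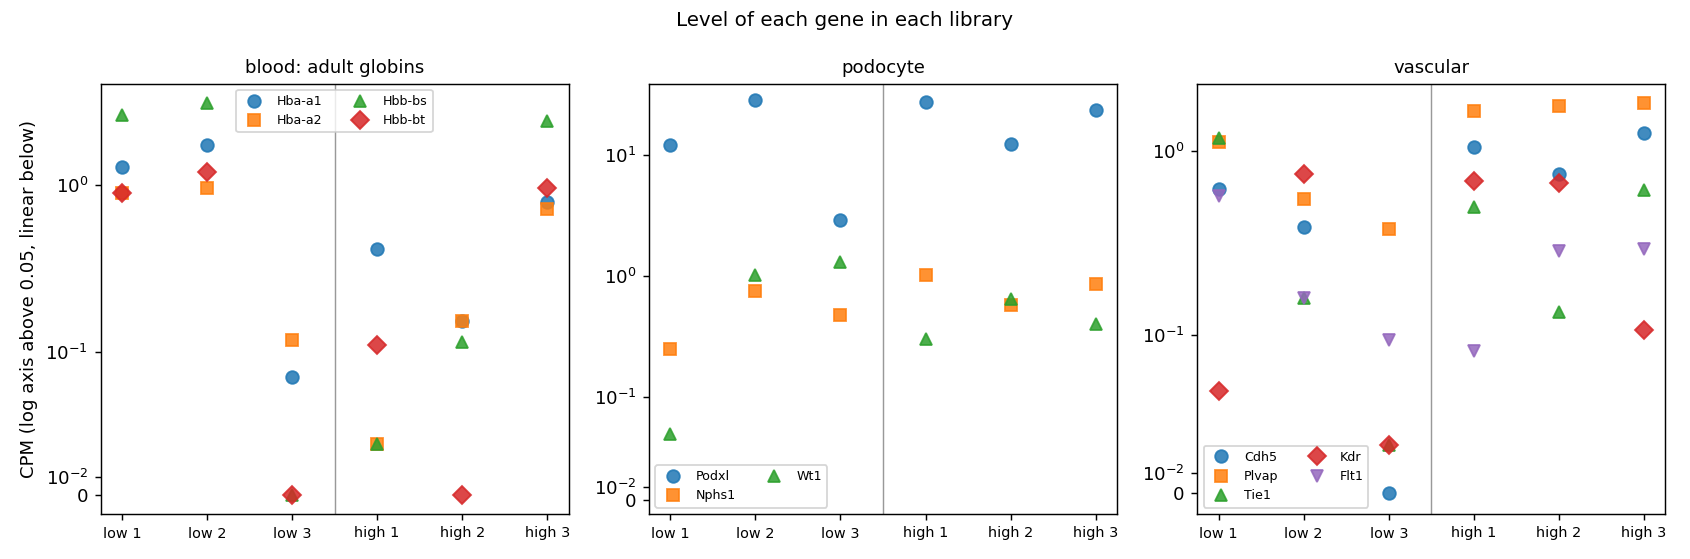
CPM of single genes in each library, with the vertical line between the diets and an axis that is logarithmic above 0.05 CPM and linear below. The 4 globins lie low together in low-NaCl library 3 and high-NaCl libraries 1 and 2; Podxl is lowest in low-NaCl library 3, where Cdh5 is at 0.

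Low-NaCl library 3 stood at the low end for several of these cell types. It was the lowest library in 4 of the 6 tested vascular members (Kdr, Cdh5, Tie1 and Plvap), in 5 of 8 tested vascular markers outside the member list, in Podxl and Tcf21, and in 3 of 4 globins, for Hbb-bt together with high-NaCl library 2. Cldn5, an endothelial tight junction protein, had 2 counts there and 59 to 123 in the others. The same library held the highest values of Tagln and Wt1, and of 4 of 6 tested podocyte markers outside the member list. It also held the highest level of Foxi1, at 520 CPM against 282 and 366 CPM in low-NaCl libraries 1 and 2, and the part of the tubular cells in the order of the members was not tested. For all tested genes, the share lowest or highest in this library was not computed. The counts of genes above therefore cannot be called particular to these cell types.

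Of the 5 class sums that of the blood members varied most from library to library, and each diet held libraries with high and with low levels. Hbb-bs and Hbb-bt, the adult beta-globins, had 106, 136 and 0 and 36, 53 and 0 counts on the low-NaCl diet, and 1, 6 and 91 and 4, 0 and 36 on the high-NaCl diet. Hba-a1 and Hba-a2, the adult alpha-globins, had 52, 77 and 3 and 36, 42 and 5 against 15, 8 and 30 and 1, 8 and 27. All 4 were high in low-NaCl libraries 1 and 2 and high-NaCl library 3 and low in the other 3 libraries. The summed level ran from 0.189 to 7.01 CPM, a 37.2-fold range, against 1.57-fold for the vascular and 6.45-fold for the podocyte sum. The vascular sum without Ehd3 spanned 7.6-fold. The vascular members Tie1 and Kdr spanned 49.5-fold and 31.9-fold, beside 24.8-fold for the alpha-globin Hba-a1 and 34.8-fold for Hba-a2. Flt1, Plvap and Ehd3 spanned 6.93-fold, 4.80-fold and 1.58-fold. No ratio could be formed for genes with a library at 0, which ran from 0 to 3.10 CPM for Hbb-bs, 1.21 for Hbb-bt and 1.25 for Cdh5.

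The promoters of these globin genes are shown because the genes varied together over the libraries. RefSeq (GRCm38.p6) places the 250 bases before the start of Hba-a1 at chr11:32283422-32283671 on the plus strand, those of Hbb-bs at chr7:103827929-103828178 and those of Hbb-bt at chr7:103813924-103814173, both on the minus strand. Capitals mark matches on either strand to GATAA, the core bound by GATA factors, to CACCC, the box bound by the erythroid factor KLF1, to CCAAT and to TATAA.
Hba-a1 promoter: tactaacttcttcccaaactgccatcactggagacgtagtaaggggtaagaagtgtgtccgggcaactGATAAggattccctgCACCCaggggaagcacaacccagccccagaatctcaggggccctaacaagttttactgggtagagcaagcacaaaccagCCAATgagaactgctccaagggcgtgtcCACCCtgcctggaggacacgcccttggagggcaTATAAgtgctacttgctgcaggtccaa
Hbb-bs promoter: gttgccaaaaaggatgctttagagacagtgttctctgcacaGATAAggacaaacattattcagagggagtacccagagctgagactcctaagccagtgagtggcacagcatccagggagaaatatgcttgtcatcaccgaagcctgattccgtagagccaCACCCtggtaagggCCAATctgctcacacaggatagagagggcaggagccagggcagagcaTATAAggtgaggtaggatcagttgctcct
Hbb-bt promoter: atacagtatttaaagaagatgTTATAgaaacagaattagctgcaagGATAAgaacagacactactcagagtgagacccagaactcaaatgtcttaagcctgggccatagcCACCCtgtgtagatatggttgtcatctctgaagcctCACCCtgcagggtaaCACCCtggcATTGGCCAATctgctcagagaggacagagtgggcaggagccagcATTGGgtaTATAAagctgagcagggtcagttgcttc
Each of these promoters, and that of Hba-a2, held all 4 motifs. Over 32851 RefSeq promoters, 22.6% held GATAA, 52.0% CACCC, 33.8% CCAAT and 22.8% TATAA in the same 250 bases. A match describes the letters only, and a link between the motifs and the levels over the libraries was not tested. The Hba-a2 promoter window shares an unbroken run of 297 of its 300 bases with that of Hba-a1.

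The alpha-globin transcripts are nearly identical too. They differ by 1 of 538 aligned bases and share an unbroken run of 415, and the 2 beta-globin transcripts are 93.3% identical over 616 aligned bases. How reads that fit both copies were placed is not given in the sources used here, so the split within each pair is uncertain and globin levels may be incomplete. Log2 fold changes of the 4 genes were 1.02 to 1.22 with SEs of 0.86 to 1.32 and edgeR adjusted p-values of 0.503 to 0.724. Without high-NaCl library 3 that of Hbb-bs was 4.58 (edgeR adjusted p = 0.26). Alas2, the erythroid enzyme of haem synthesis, had too few countable bases to add to this. Hbb-y, Hbb-bh1, Hbb-bh2 and Hba-x, other genes of the globin clusters looked up after the adult values were seen, had 559 to 619 countable bases and no count in any library.

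Of the 42 members 16 had enough reads to be tested between the diets, and none was called (edgeR, adjusted p under 0.05), where 3.46% of all 10564 tested genes were called (1.72% higher and 1.74% lower on the low-NaCl diet). At an unadjusted p under 0.05 stood 1 member, Plvap, beside 18.3% of all genes, DESeq2 called 1 member, again Plvap, beside 8.11% of all genes, and limma-voom called 0 beside 2.92%. Log2 fold changes were above 0 in 8 members and below 0 in 8, with a median of 0.06 against -0.002 over all tested genes. The diets did not overlap in 2 of 16 members, Cdh5 and Plvap, beside 23.9% of all tested genes. The other 26 members were too low to test, 17 of them with some reads. SEs ran from 0.18 for Ehd3 to 1.32 for Hbb-bs, and a p that missed the threshold does not show that levels were alike.

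**Figure D4:**
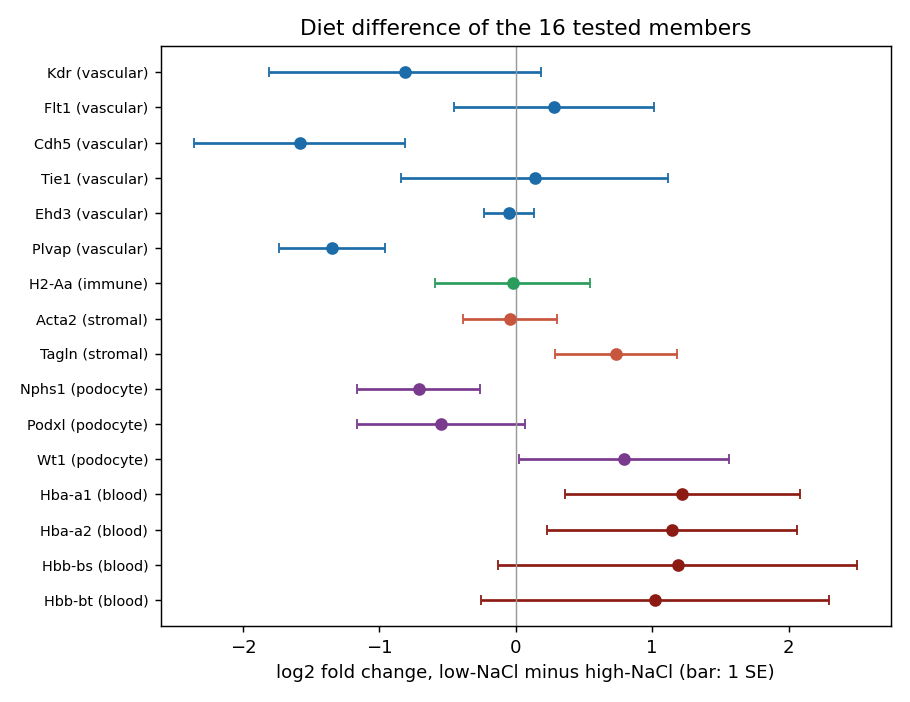
Log2 fold change of each tested member, low-NaCl minus high-NaCl, as points with bars of 1 SE, coloured by class. Plvap, at -1.35 ± 0.39, lies furthest from 0 in units of its SE, and Ehd3 has the shortest bar.

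Other markers of the same cell types, 60 genes that are no members, gave a fuller reading. Of these 31 were tested, and 1 was higher and 2 lower on the low-NaCl diet, beside 1.72% higher and 1.74% lower of all tested genes. Cd79b, a B cell receptor subunit, had 31, 15 and 32 counts at low NaCl and 79, 110 and 63 at high NaCl and was 3.19-fold lower (edgeR adjusted p = 0.034). Des, the muscle filament desmin, which pericytes and mesangial cells also make, had 19, 32 and 18 against 104, 55 and 75 counts and was 3.59-fold lower (0.0431). Clic5, a chloride channel protein of podocyte and endothelial cells, was 1.89-fold higher (8.66 ± 1.27 against 4.59 ± 0.77 CPM, 0.0398).

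Leaving out any 1 library kept the direction and much of the size of these 3 differences. The log2 fold change ran from -1.87 to -1.38 for Cd79b, from -2.16 to -1.47 for Des and from 0.80 to 1.06 for Clic5. The calls were lost in several of these smaller fits. That of Cd79b was lost on leaving out any library but the first at low NaCl and the second at high NaCl (edgeR adjusted p from 0.0742 to 0.108), that of Des without each library except high-NaCl library 2 (0.0781 to 0.141), and that of Clic5 without each library except low-NaCl library 1 (0.0592 to 0.158). All 3 calls also ended with total-count scaling (0.0675 to 0.0748) and with lane as a term (0.242 to 0.391), where the log2 fold changes were -1.49, -2.59 and 0.88. That of Des was lost too with limma-voom (adjusted p = 0.0897) and among genes at least 50% countable (edgeR adjusted p = 0.0531). Of the 5 tested immune markers outside the member list, 4 had log2 fold changes below 0. The diets did not overlap in 3 of the 5, beside 23.9% of all tested genes. H2-Ab1, a class II chain, had 38, 90 and 184 counts at low NaCl and 102, 146 and 61 at high NaCl. It stood at 3.76 ± 1.82 CPM per kb, with a log2 fold change of 0.02 ± 0.47 (edgeR adjusted p = 0.987). Fcer1g, a signalling chain of Fc receptors, had 64, 45 and 27 counts at low NaCl and 84, 55 and 76 at high NaCl, and Mrc1, the mannose receptor of macrophages, 6, 25 and 15 against 27, 47 and 26. Neither passed the test (edgeR adjusted p = 0.389 and 0.246). The leukocyte antigen Cd52, the T cell gene Cd3d and Tyrobp, the adaptor of myeloid receptors, were fully countable and had 5, 4 and 1 counts in all. The macrophage receptor Cx3cr1, the B cell gene Ms4a1 and the T cell gene Cd3g were at 0 in every library, with 3729, 3729 and 1023 countable bases. Cd79b, at 15 to 110 counts, thus stood beside Ms4a1 at 0 and Cd79a at 1 to 9 counts.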

How the data were processed

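Gene expression was measured in 6 libraries of isolated collecting duct cells. The deposited files, 1 for each library, hold raw counts of reads by UCSC transcript identifier. The authors made them, per the file headers, with featureCounts 1.5.0-p3 over exons of an mm10 annotation with no strand, overlap or multi-mapping option. FastQC, Subread and edgeR are further tools listed in the submitters' processing notes, and the aligner is not given in the sources used here. Of 59121 identifiers, 41510 were matched to GENCODE M21 genes (mm10) by identical introns and 11061 by sharing 50% or more of their exonic bases on the same strand, and counts were summed to 24928 genes. The unmatched 6550 (5.57% of counts) entered library sizes only. For members both rules chose the same identifiers.

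Genes were tested with edgeR 4.0.16 (R 4.3.3, Python 3.11.15): filterByExpr by diet, TMM, robust glmQLFit and glmQLFTest without covariates, with Benjamini-Hochberg adjustment over 10564 genes. The procedure was tested on simulated data. DESeq2 1.42.0 and limma-voom (limma 3.58.1) were among the alternatives. Levels per kb were given from 500 countable bases on. Members, lists and tests were chosen with earlier results of these data known. By rule, members got values in every library if called, at a mean of at least 1 CPM, or among the 2 highest of their class per kb, and other markers were named up to 3 per list by smallest p. Values of further members, of H2-Ab1, Cx3cr1, Ms4a1, Cd3g, Cd3d, Cd52, Tyrobp, Tcf21, Slc5a2, Cubn, Kap, Miox, Lrp2, Gatm and Slc22a6, and class sums without the leading member were added after they were seen. No library was a duplicate: pairs within a diet had chi-square values of 38.2 to 247.2 times their degrees of freedom. The values of 1 further marker are not reported here.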

Additional observations from a re-analysis of the deposited data

How the results depend on the processing

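Over all genes, 182 were higher and 184 lower on the low-NaCl diet. The counts were 81 and 55 with total-count scaling, 409 and 448 with DESeq2, and 1 and 2 with lane as a term, and 280 were lower with no filter. Leaving out each library gave 34 to 292 higher and 36 to 254 lower genes. With the replicate number as a block the counts were 465 and 447 and 1 member, Plvap, was lower (adjusted p = 0.0459). Whether the replicate numbers pair the libraries is not known, since the labels give no such link. Same-numbered libraries deviated together with correlations of 0.194, 0.273 and -0.073, against -0.286 to 0.102 for libraries with unlike numbers. No member was called except Plvap, as 1 lower member with no filter, DESeq2, the block or without low-NaCl library 1, and Tagln, as 1 higher member without low-NaCl library 1. Leaving out each library thus gave 0 to 1 higher and 0 to 1 lower members.

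Of 291 fold changes of the 16 tested members under alternatives, 23 changed sign, in 7 members, all with values that did not pass. With total-count scaling Ehd3, Acta2 and H2-Aa gave 0.014, 0.077 and 0.053. With limma-voom Wt1, Tie1, Acta2 and H2-Aa gave -0.016, -0.82, 0.031 and 0.035. With a lane term Wt1, Ehd3 and Tagln gave -2.54, 0.415 and -0.75, and with the replicate block Tie1 and H2-Aa gave -0.38 and 0.031. Leaving out a library gave -0.21 to 0.12 for Ehd3, -0.81 to 0.69 for Flt1, -2.10 to 0.70 for Tie1, -0.33 to 0.28 for Acta2 and -0.39 to 0.41 for H2-Aa. Summed levels (log2 low over high) moved beyond their spread within lane 1 for the vascular members (0.32 against -0.15) and the stromal members (-0.51 against 0.60), and without Ehd3 for the vascular members (-0.94). The causes were not tested. Depth and countable length limit the 26 untested members.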

Other observations

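Klf1, the erythroid factor that binds the CACCC box of globin promoters, was fully countable and had 80, 46 and 35 counts on the low-NaCl and 77, 75 and 97 on the high-NaCl diet. It did not share the library order of the globins: high-NaCl library 1 held 77 counts of Klf1 and 1 of Hbb-bs. Aqp1, a water channel of proximal tubule, thin descending limb and some capillaries, stood at 2594 ± 872 against 1549 ± 616 CPM (edgeR adjusted p = 0.264), or 751 ± 321 CPM per kb, while the proximal genes Slc34a1, Slc5a2 and Cubn stood at 0.768, 0.591 and 0.0499 CPM per kb and the endothelial gene Cdh5 at 0.169. Notch3, a receptor of vascular smooth muscle and pericytes, was measured at 9.32 ± 2.11 against 15.9 ± 1.41 CPM (edgeR adjusted p = 0.062), with all low-NaCl libraries below all high-NaCl libraries.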
